A study of Mus musculus with 74 samples.

Results

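The genes described here encode the machinery of DNA replication and cell division: the proteins that license origins and unwind DNA, the enzymes and factors that supply S phase, the cyclins, Cdk1 and the transcription factors of the cycle, the mitotic kinases and ubiquitin ligase components, and the motor, centromere and chromosome proteins of mitosis. A list of 42 gene symbols defined the set. Each gene was represented by the probe set with the highest mean over all arrays, among probe sets annotated to a single gene. By this rule 41 of the 42 were measured, out of 18193 genes in all. Ccnb1 had no probe set annotated to it alone and was not analysed here.

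The study profiled tissues of male B6C3F1 mice on Affymetrix arrays after dosing with compounds tied to hemangiosarcoma, a tumour of endothelial cells, in mice. Each compound was run as its own study with its own vehicle mice, and tissues were taken on day 15 or day 29. Fenretinide, a synthetic retinoid, was given in the diet at 500 mg/kg and white adipose tissue was profiled in 3 vehicle and 3 treated mice on day 15 and in 4 and 4 on day 29. Troglitazone, a PPARgamma agonist, was given orally at 1200 mg/kg and brown adipose tissue and liver were profiled. Elmiron, which is pentosan polysulfate, was given orally at 1000 mg/kg and liver was profiled. The troglitazone and Elmiron groups held 5 mice each, which gave 74 arrays in 16 groups. Per the labels the doses were about double the high doses of the carcinogenicity studies. The doses, routes and vehicles differed between compounds.

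Before a cell divides, the Mcm2 to Mcm7 helicase is loaded onto origins by Cdc6 and Cdt1, and it is activated with Cdc45 and the GINS complex when S phase begins. Cyclins that bind Cdk1 then bring the cell into mitosis, where the Aurora, Bub and Plk1 kinases control spindle attachment and the Cdc20-activated ubiquitin ligase starts chromosome separation. Most cells of adult fat and liver rest outside the cycle, and transcripts of these genes come mainly from the few cells that are dividing. Replication genes are known to be driven through E2F sites in their promoters. Mitotic genes are known to be driven through CCAAT boxes, bound by NF-Y, and through the cell cycle homology region, bound by the DREAM and MuvB complexes.

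The promoters of 5 genes whose transcripts rose in white fat are shown because they show the motifs known for replication and for mitosis genes. Each runs from 250 bases before to 25 bases after the RefSeq start (mouse build GRCm38.p6), in the direction of the gene. Capitals mark matches on either strand to 4 kinds of motif. The CCAAT box was searched by that name's letters. The GC box, bound by Sp1, was searched as GGGCGG. The cell cycle homology region was searched as TTTGAA. The E2F site was searched in 4 forms, TTTCCCGC, TTTGGCGC, TTTCGCGC and TTTGCCGC. Mcm5 (chr8:75109259-75109533, plus strand) and Mcm6 (chr1:128359681-128359955, minus strand) encode helicase subunits. Cdk1 (chr10:69352888-69353162, minus strand) encodes the mitotic kinase, Top2a (chr11:99024165-99024439, minus strand) a topoisomerase of mitotic chromosomes and Ccnb2 (chr9:70421530-70421804, minus strand) cyclin B2.
Mcm5: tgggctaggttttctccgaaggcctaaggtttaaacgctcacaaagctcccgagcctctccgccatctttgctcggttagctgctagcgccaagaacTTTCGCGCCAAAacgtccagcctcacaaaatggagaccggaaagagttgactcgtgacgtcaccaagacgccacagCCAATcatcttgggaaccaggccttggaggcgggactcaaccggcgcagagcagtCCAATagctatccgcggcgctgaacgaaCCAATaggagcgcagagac
Mcm6: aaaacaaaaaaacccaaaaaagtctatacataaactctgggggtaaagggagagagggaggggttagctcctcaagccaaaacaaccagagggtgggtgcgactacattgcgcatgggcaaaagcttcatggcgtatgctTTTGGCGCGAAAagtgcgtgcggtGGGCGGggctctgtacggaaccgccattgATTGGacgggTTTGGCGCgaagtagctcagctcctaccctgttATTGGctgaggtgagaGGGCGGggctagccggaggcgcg
Cdk1: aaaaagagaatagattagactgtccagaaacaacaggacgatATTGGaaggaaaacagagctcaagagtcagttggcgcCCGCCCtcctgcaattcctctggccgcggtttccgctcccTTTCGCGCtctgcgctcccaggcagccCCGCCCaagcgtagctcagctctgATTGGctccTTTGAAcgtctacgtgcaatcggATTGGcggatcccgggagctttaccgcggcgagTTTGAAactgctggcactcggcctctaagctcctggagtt
Top2a: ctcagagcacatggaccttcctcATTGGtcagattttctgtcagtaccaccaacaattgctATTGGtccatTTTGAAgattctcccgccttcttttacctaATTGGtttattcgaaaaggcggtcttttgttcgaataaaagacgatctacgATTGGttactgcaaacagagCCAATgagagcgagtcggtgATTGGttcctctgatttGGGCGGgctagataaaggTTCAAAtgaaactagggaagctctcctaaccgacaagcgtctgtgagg
Ccnb2: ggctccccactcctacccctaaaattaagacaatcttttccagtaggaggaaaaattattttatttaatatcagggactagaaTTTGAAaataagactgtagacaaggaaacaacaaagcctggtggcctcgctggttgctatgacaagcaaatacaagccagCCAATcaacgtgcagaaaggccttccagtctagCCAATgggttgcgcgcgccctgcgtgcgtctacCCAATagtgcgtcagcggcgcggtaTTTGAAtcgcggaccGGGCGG
In Mcm5 and Mcm6, 2 E2F forms on opposite strands overlap, beginning at position -153 and -110 from the start. Cdk1 held an E2F form at -131 and TTTGAA at -71 and -15. Top2a held CCAAT at 6 places and TTTGAA on both strands, and Ccnb2 held 3 CCAAT boxes and 2 copies of TTTGAA.

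Promoters of 34 of the 41 genes were found in the RefSeq table, in windows of 250 bases before to 50 bases after the start, and those of Mcm4, Gins2, Ccne2, Ccna2, Foxm1, Aurkb and Kif20a were not used here. The 34 genes had 37 windows, and a gene with several windows was counted if any of them held the motif. An E2F form was present in 9 of the 34 (26.5%), against 2.6% of all 27025 genes in the table and 3.29% of the 17491 protein-coding genes. TTTGAA was present in 14 of 34 (41.2%), against 20.2% of all and 18.5% of protein-coding genes. CCAAT was present in 24 (70.6%), against 41.1% and 42.3%, and GGGCGG in 27 (79.4%), against 38.2% and 49.2%. The E2F forms and TTTGAA were spread unevenly over the roles. Among 16 replication genes 8 held an E2F form and 2 held TTTGAA, whereas among 14 mitosis genes 0 held an E2F form and 10 held TTTGAA. The other 4, of the cyclins, Cdk1 and transcription factors, were counted apart from both. Of these, 1 held an E2F form, Cdk1, and 2 held TTTGAA, Cdk1 and Ccnb2. These matches describe the letters of the windows and no binding was measured.

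The values are the deposited RMA intensities, set here on a log2 scale. Array medians lay between 111.7 and 122.7 on the linear scale, and replicate arrays of a group correlated at 0.9054 to 0.9965 over genes. Levels of different probe sets are not compared.

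Some libraries stood apart from the tissue on their label. Adipoq, an adipocyte hormone, read 14.77 to 14.99 in white fat and 14.42 to 14.93 in brown fat against 4.78 to 8.09 in liver, and Alb, a hepatocyte product, read 15.08 to 15.21 in liver. Among white fat libraries, 4 of day 29 carried Ucp1, the uncoupling protein of brown adipocytes: 13.44 and 11.69 in vehicle mice 85 and 86 and 12.82 and 14.66 in fenretinide mice 91 and 93, against 5.13 to 7.96 in the other 10. The mean of 8 skeletal muscle genes in these 4 lay 1.90 to 4.26 above the day 15 vehicle mean. Alb was also high in vehicle mouse 86 (13.93) and in fenretinide mice 93 (12.22) and 95 (13.99). Among brown fat libraries of day 29, vehicle mouse 82 and troglitazone mouse 95 read 5.91 and 8.10 for Ucp1, against 14.91 to 15.11 in the other 18. Lep, another adipocyte hormone, was 12.27 and 13.21 in these 2, against 6.55 to 9.41 in the other 18. Alb was 14.61 and 10.40 in these 2, against 6.32 to 10.56, so mouse 95 did not stand apart in Alb. For the list as a whole, the main medians and counts that rest on these fat libraries are also given without them. Single genes are given without them only in part. Among livers, Elmiron mouse 92 of day 29 read 9.64 for Ucp1, against 5.75 to 6.19 in the other treated livers of that study and day. Its Cidea, another brown adipocyte gene, read 8.37 against 5.45 to 6.01. The Elmiron results below include this library. In bulk tissue, a higher transcript level from more cells of a type and one from more RNA per cell cannot be told apart.

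In white fat on day 15, replication and mitosis transcripts were higher in fenretinide-treated mice. The test was limma's moderated test within each tissue and study, with p-values adjusted by Benjamini-Hochberg over 18193 genes and a threshold of 0.05. At that threshold 13 of the 41 genes rose (31.7%, against 3.27% of all genes) and 0 fell (0.682% of all genes). The change was above 0 for 35 of 41 and its median was 0.66 on the log2 scale, against -0.04 over all genes. The 3 treated mice lay above the 3 vehicle mice for 28 genes (12.1% of all genes) and below them for 1, Gins2 (15.8%). Averaged over the 41 genes, the deviation from the day 15 vehicle mean was 0.14, 0.07 and -0.21 in vehicle mice 48, 49 and 50 and 0.89, 0.52 and 0.88 in fenretinide mice 57, 58 and 59. Mouse 58 was the lowest of the treated mice for 9 of the 13 genes that rose, and still lay above every vehicle mouse in each of them.

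**Figure D1:**
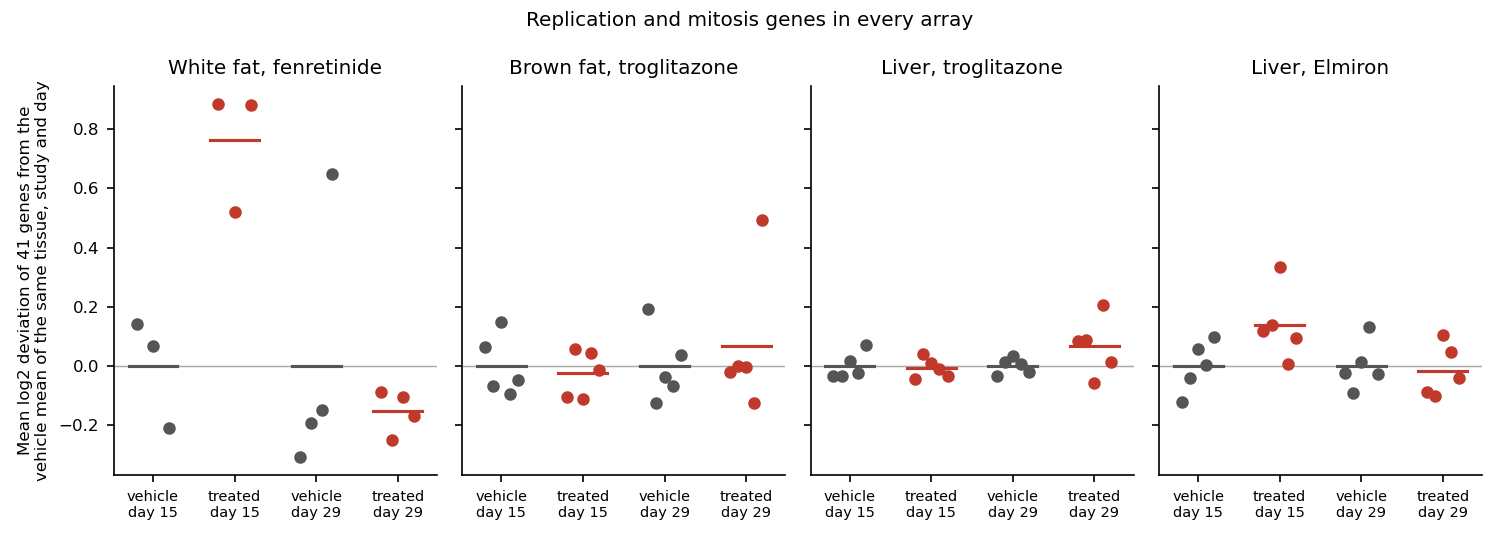
Mean log2 deviation of the 41 genes from the vehicle mean of the same tissue, study and day (vertical axis), for each array, in 4 panels by tissue and study. The 3 fenretinide arrays of day 15 in white fat sit at 0.52 to 0.89, above the vehicle arrays at -0.21 to 0.14, and vehicle mouse 86 of day 29 sits apart from its group at 0.65.

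Of the 10 licensing and helicase genes, 4 rose on day 15, the change was above 0 for 8 and the median was 0.56. Mcm6 had log2 values of 8.84, 8.64 and 8.34 in vehicle mice and 9.88, 9.77 and 9.57 in treated mice, a rise of 1.13 ± 0.16 (SE; 2.19-fold; limma adjusted p = 0.0014). Every treated mouse lay above every vehicle mouse. Mcm5, its partner subunit, read 8.31, 8.24 and 7.65 against 9.76, 9.20 and 9.48, a rise of 1.41 ± 0.30 (2.66-fold; adjusted p = 0.0194). Cdc6, the loader, read 5.49, 5.52 and 4.70 against 6.06, 6.45 and 6.71, a rise of 1.17 ± 0.29 (2.24-fold; adjusted p = 0.0413). Vehicle mouse 50 was the lowest for both, and the groups did not overlap. Cdt1, which loads the helicase together with Cdc6, read 7.51, 7.79 and 6.99 against 8.63, 8.58 and 8.40, a rise of 1.11 ± 0.28 (2.15-fold; adjusted p = 0.0481), while another probe set of Cdt1 had a change of -0.14. The other helicase subunits Mcm2, Mcm3, Mcm4 and Mcm7 had changes of 0.20 to 0.62 that did not pass the test. Other probe sets gave 1.36 for Mcm2 and 0.91 and 0.63 for Mcm3, each with all treated mice above all vehicle mice. Those left of Mcm3 had 0.45 and -0.01. Gins2, a subunit of the GINS complex, stood on the opposite side, at 8.54, 8.59 and 8.46 in vehicle mice and 8.20, 7.79 and 8.33 in treated mice, a difference of -0.43 ± 0.19 (adjusted p = 0.233).

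Of the 8 genes that supply S phase, 4 rose. Rrm2, the cell cycle regulated subunit of ribonucleotide reductase, had the highest rise of the list: 6.70, 6.35 and 5.82 in vehicle mice and 8.86, 7.86 and 9.21 in treated mice, or 2.35 ± 0.48 (5.10-fold; adjusted p = 0.0150). Tk1, thymidine kinase, read 7.51, 7.10 and 6.93 against 8.51, 8.17 and 8.64, a rise of 1.26 ± 0.28 (2.40-fold; adjusted p = 0.0253). Uhrf1, which maintains DNA methylation behind the fork, read 5.87, 5.86 and 5.75 against 7.07, 6.87 and 6.70, a rise of 1.06 ± 0.19 (2.08-fold; adjusted p = 0.00785). In each of these genes all treated mice lay above all vehicle mice. Rrm1, the large subunit of ribonucleotide reductase, rose by 0.72 ± 0.14 (1.65-fold; adjusted p = 0.0107), from 8.77, 8.71 and 8.49 to 9.35, 9.21 and 9.58. Pcna, the sliding clamp of the replication fork, read 11.98, 11.87 and 11.86 against 12.42, 12.19 and 12.40. Its groups also did not overlap, but the difference of 0.43 ± 0.12 missed the threshold (adjusted p = 0.0658). Tyms, the helicase-like Hells and the checkpoint kinase Chek1 had differences of 0.23, 0.05 and -0.12 that did not pass the test. Their probe sets disagreed: another of Hells had a difference of 1.58, 2 others of Chek1 had 0.48 and 0.47 and 1 other of Tyms had 0.30, each with all treated mice above all vehicle mice.

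Among the cyclins, Cdk1 and transcription factors, 3 of 7 rose. Cdk1, the kinase that drives entry into mitosis, read 7.74, 7.51 and 7.14 in vehicle mice and 9.48, 8.51 and 9.45 in treated mice, a rise of 1.68 ± 0.41 (3.21-fold; adjusted p = 0.0393). Ccna2, cyclin A2, read 7.54, 7.35 and 6.95 against 9.15, 8.19 and 8.98, a rise of 1.49 ± 0.37 (2.81-fold; adjusted p = 0.0394). Ccnb2 read 6.60, 6.71 and 6.30 against 7.97, 7.32 and 8.29, a rise of 1.32 ± 0.33 (2.49-fold; adjusted p = 0.0405). Mouse 58 was the lowest treated mouse in all 3 and the groups did not overlap. Ccne1, cyclin E1, which acts at entry into S phase, read 7.65, 7.75 and 7.26 in vehicle mice and 7.44, 7.50 and 7.46 in treated mice, overlapping groups with a difference of -0.08 ± 0.16 (adjusted p = 0.814). The transcription factors E2f1 and Foxm1 had differences of -0.17 and -0.05 that did not pass the test.

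Of the 8 mitotic kinase and ubiquitin ligase genes, 1 rose, although the change was above 0 for all 8 with a median of 0.66. It was Birc5, survivin, a subunit of the chromosomal passenger complex, at 6.41, 6.28 and 5.95 in vehicle mice and 8.66, 7.58 and 8.59 in treated mice, a rise of 2.06 ± 0.50 (4.18-fold; adjusted p = 0.0390). Of the 8 chromosome and spindle genes, 1 rose, with the change above 0 for all 8 and a median of 0.92. Top2a read 7.16, 6.90 and 6.54 against 8.84, 7.91 and 8.66, a rise of 1.60 ± 0.41 (3.04-fold; adjusted p = 0.0479), while its 2 other probe sets had changes of 0.20 and -0.12. Mki67, the proliferation marker Ki-67, read 7.79, 6.89 and 6.82 against 9.66, 8.54 and 9.40. The groups did not overlap, and the difference of 2.04 ± 0.54 was the highest among genes that missed the threshold (adjusted p = 0.0567). Probe sets of further genes that missed the threshold disagreed, among them Cdc20 and Cenpa. Cdc20 had 0.06 in the one used and 0.89 and 1.91 in its others, which had the groups apart. Cenpa had 1.05 in the one used and -0.57 and 0.07 in its others. Across all probe sets of the list, 70 of 95 had a change above 0 on day 15 and in 49 of 95 all treated mice were above all vehicle mice. The share over all probe sets of the array is not given here, and probe sets of the same gene are not independent. For 11 of the 13 genes that rose, every probe set had a change of the same sign, the exceptions being Top2a and Cdt1. Among the 11, Birc5, Ccnb2, Cdc6, Cdk1 and Tk1 had only 1 probe set, so for them the same sign was given in advance. Sign alone was counted, and some of these changes were small. A probe set of Mcm6 had 0.0028, a probe set of Rrm1 had 0.06 and a probe set of Mcm5 had 0.14, each with overlapping groups.

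**Figure D2:**
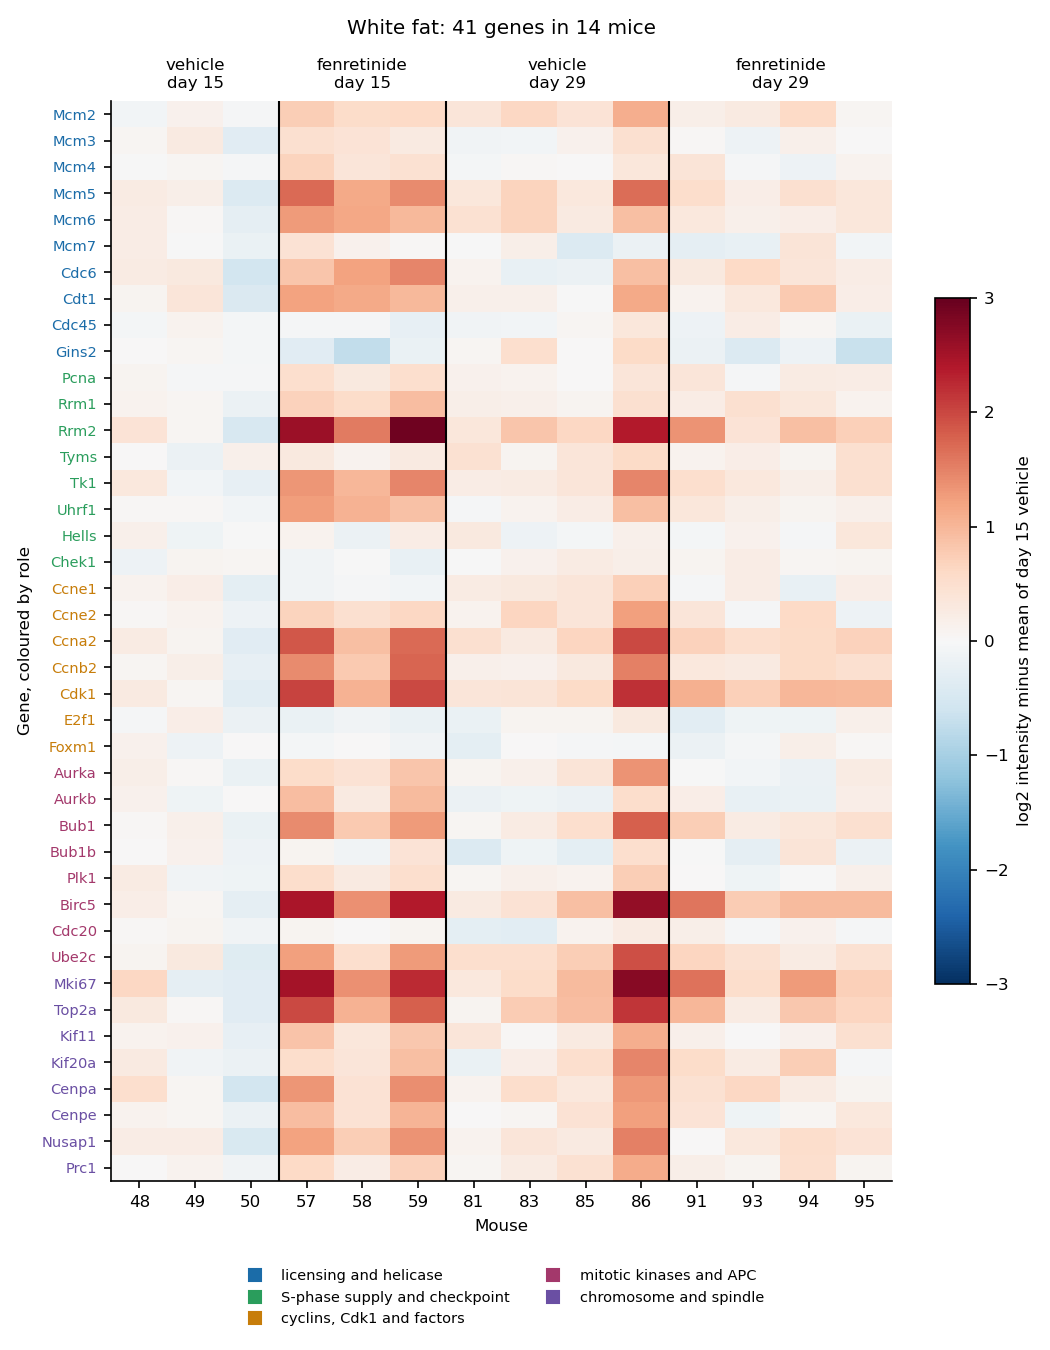
Log2 value minus the day 15 vehicle mean for each of the 41 genes (lines of the map, labels coloured by role) in each of the 14 white fat mice (columns). The 3 fenretinide mice of day 15 are high over most genes, with 13 of 41 past the test, and vehicle mouse 86 of day 29 is above all day 15 vehicle mice in 39 of 41.

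Genes of the same machinery outside the list were looked at through 2 further lists. Of 29 other replication genes, 4 rose, the change was above 0 for 27 and the median was 0.39. They included Prim1, a primase subunit (0.99, adjusted p = 0.0092), Dbf4, the activator of the Cdc7 kinase (0.99, adjusted p = 0.0437), and Rfc5, a clamp loader subunit (0.73, adjusted p = 0.0296). Of 41 other mitosis genes, 6 rose, the change was above 0 for 38 and the median was 0.43, with Pbk at 2.22 (adjusted p = 0.0286), Cenpf at 1.68 (adjusted p = 0.0296) and Melk at 1.37 (adjusted p = 0.0212). Among the 12 of the 13 risen genes with a promoter, 6 held an E2F form and 3 held TTTGAA. Among the 22 others with a promoter, 3 held an E2F form and 11 held TTTGAA. Most of the 12 were replication genes, so these counts are not separate from the uneven spread of the motifs over the roles.

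Marker lists of other cells also differed on day 15, some higher and some lower. Of 13 epithelial genes, 7 rose, the change was above 0 for 11 and the median was 3.15, and their mean deviation was 2.28 to 3.50 in treated mice against -0.42 to 0.32 in vehicle mice. Cdh1, E-cadherin, read 3.76, 4.08 and 4.09 in vehicle mice and 8.05, 8.27 and 9.84 in treated mice. Of 12 endothelial genes, 1 rose, Emcn (0.94 ± 0.18; adjusted p = 0.0103), the change was above 0 for 10 and the median was 0.56. Lymphocyte genes were above 0 in 0 of 10 with a median of -0.42, macrophage genes in 3 of 12 with a median of -0.09 and adipocyte genes in 0 of 8 with a median of -0.19. Erythroid genes were above 0 in 0 of 6 with a median of -0.29, and 1 fell, the globin Hba-a1 (-0.42 ± 0.09; adjusted p = 0.0175). The part of epithelial or endothelial cells in the rise of the replication and mitosis genes was not tested. Vehicle mouse 86 of day 29, in which the list was as high as in treated mice of day 15, had deviations of 3.53 for hepatocyte, 2.12 for brown adipocyte, 1.90 for skeletal muscle, 0.19 for epithelial and -0.10 for endothelial genes. Their part in its level was not tested.

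How many genes passed depended on single mice, while the median change over the list stayed at 0.60 to 0.81 whichever array was left out. Mcm6 and Uhrf1 remained past the threshold in each of the 14 fits that left out 1 white fat array, Rrm1 in 13, Mcm5 and Rrm2 in 12 and Tk1 in 10. Ccna2, Cdk1 and Birc5 passed in 5 of them, Ccnb2 in 4, Top2a in 3 and Cdc6 and Cdt1 in 2. The number of genes that rose was 6, 5 and 2 without vehicle mice 48, 49 and 50, where 1.98%, 2.63% and 1.86% of all genes passed in either direction. It was 3 and 5 without fenretinide mice 57 and 59, where 2.37% and 5.62% of all genes passed, against 3.95% with every array. The arrays of day 29 entered through the shared estimate of the spread: the number was 23 without vehicle mouse 86 (4.38% of all genes), and 6, 7, 7 and 6 without mice 85, 93, 94 and 95 (3.33% to 3.52%). Without the 4 libraries of day 29 with brown adipocyte genes the number was 19 (3.65% of all genes).

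On day 29 the list no longer stood above vehicle in fenretinide-treated white fat. By limma 0 of 41 were higher (0.412% of all genes) and 0 were lower (0.929%), and 4 had an unadjusted p below 0.05, all lower (9.76%, against 14.8% of all genes in either direction). The change was above 0 for 10 and the median was -0.15, against -0.02 over all genes. Treated mice lay above all vehicle mice for 0 genes (3.13% of all genes) and below them for 2, Gins2 and Ccne1 (5.62%). Gins2 read 8.58, 9.03, 8.53 and 9.10 in vehicle mice 81, 83, 85 and 86 and 8.36, 8.11, 8.38 and 7.86 in fenretinide mice 91, 93, 94 and 95. The difference of -0.64 ± 0.16 had an adjusted p of 0.0754, and its second probe set gave -0.73. Ccne1 read 7.79, 7.85, 7.92 and 8.28 against 7.52, 7.77, 7.33 and 7.75, a difference of -0.37 ± 0.14 (adjusted p = 0.221).

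Vehicle mouse 86 stood apart on day 29. Its mean deviation from the day 15 vehicle mean was 1.07, above the 0.11, 0.23 and 0.27 of the other vehicle mice and the 0.17 to 0.33 of the treated mice. It had the highest value of day 29 in 35 of 41 genes, and in 37 of 41 it reached at least the lowest treated mouse of day 15. Mki67 read 7.49, 7.73, 8.12 and 9.90 in vehicle mice against 8.79, 7.70, 8.44 and 7.87 in treated mice, a difference of -0.11 ± 0.47 (adjusted p = 0.960). Cdk1 read 7.83, 7.85, 8.05 and 9.66 against 8.52, 8.19, 8.46 and 8.44, a difference of 0.05 (adjusted p = 0.974). For Cdk1 the 4 treated mice lay above 3 of the vehicle mice and below mouse 86. Top2a read 6.95, 7.62, 7.78 and 9.01 against 7.85, 7.10, 7.67 and 7.51, a difference of -0.30 (adjusted p = 0.788). Mcm6 read 9.06, 9.27, 8.87 and 9.51 against 8.92, 8.77, 8.79 and 8.94, a difference of -0.32 ± 0.14 (adjusted p = 0.304). Pcna ranged from 11.92 to 12.28 in vehicle mice and from 11.87 to 12.26 in treated mice, a difference of 0.05 (adjusted p = 0.897). All of these groups overlapped.

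Without mouse 86 the median change on day 29 was 0.07, above 0 for 26 of 41, and again 0 genes passed. The differences were then 0.49 for Cdk1, 0.42 for Mki67, 0.08 for Top2a and -0.21 for Mcm6. Without the 4 libraries that carried brown adipocyte genes, the median was 0.10, above 0 for 30 of 41, Cdk1 and Mki67 stood at 0.61 and 0.55, and 0 passed. Without fenretinide mouse 95, which carried Alb, the median was -0.14, above 0 for 12 of 41, and 0 passed. Among vehicle mice alone, day 29 against day 15 was above 0 for 37 of 41 genes, with a median of 0.43, and 0 genes passed by limma (0% of all genes), with 15 at an unadjusted p below 0.05 (36.6%, against 9.99% of all genes). Without mouse 86 this median was 0.20, above 0 for 31, and without mice 85 and 86 it was 0.15, above 0 for 32.

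**Figure D3:**
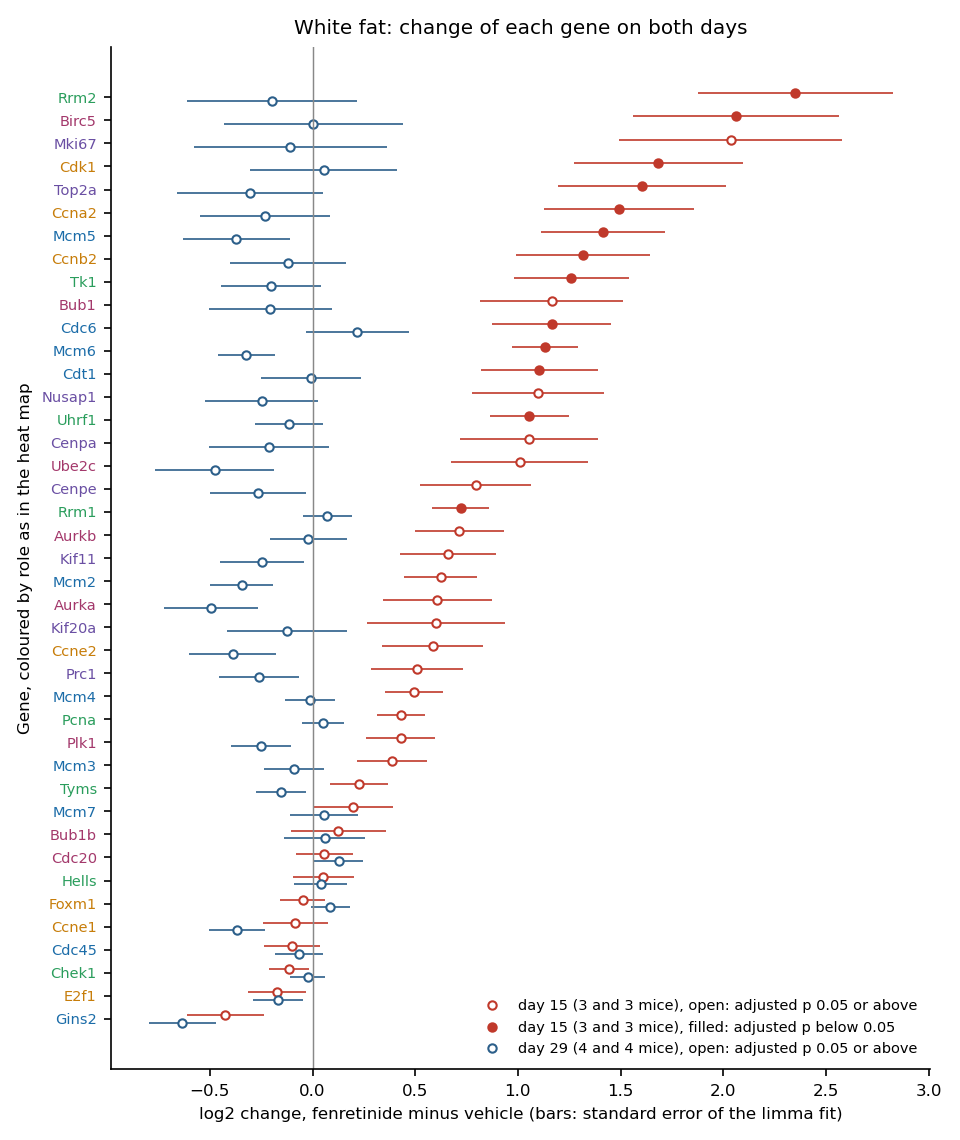
Log2 change, fenretinide minus vehicle, with its standard error for each of the 41 genes in white fat on day 15 and day 29; filled points passed the adjusted threshold of 0.05. On day 15 the changes run from -0.43 for Gins2 to 2.35 for Rrm2 with 13 filled points, and on day 29 no point is filled.

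The difference between the days was tested directly. The effect of fenretinide was lower on day 29 than on day 15 for 3 of 41 genes (1.27% of all genes) and higher for 0 (0.0605%), with a median difference of -0.95. Mcm6 differed by -1.46 ± 0.21 (limma adjusted p = 0.00357), Mcm5 by -1.78 ± 0.40 (adjusted p = 0.0477) and Uhrf1 by -1.17 ± 0.25 (adjusted p = 0.0423). For the other genes that rose on day 15, the difference between days did not pass. Without mouse 86 these 3 genes differed by -1.34 (adjusted p = 0.00451), -1.48 (adjusted p = 0.0151) and -0.97 (adjusted p = 0.00787), and Tk1 also passed, at -1.16 (adjusted p = 0.0221). Without the 4 libraries with brown adipocyte genes 1 gene passed, Mcm6 at -1.43 (adjusted p = 0.0384), and the median was -0.66. Mcm6 passed in each of 14 fits that left out 1 array. Only 1 gene passed without mouse 48, 49, 50, 57, 58, 83, 93 or 95. In the epithelial list, the largest differences between days past the test were -5.56 for Prom1, -5.39 for Dsp and -5.10 for Cldn7. On day 29 the mean deviation of the epithelial genes was -0.20 to 0.02 in treated mice, against -0.11 to 0.18 in vehicle mice. That of the endothelial genes was 0.05 to 0.72 against -0.09 to 0.23. The part of these cells in the difference between days was not tested.

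In brown fat, troglitazone gave 0 of 41 genes past the threshold by limma on day 15 (0.0605% of all genes) and 0 on day 29 (0.055%). The numbers with an unadjusted p below 0.05 were 0 (3.75% of all genes) and 4 (9.76%, against 6.01% of all genes). On day 15 the median change was -0.02, above 0 for 14 genes. Cenpa, the centromeric histone, had the largest difference: 8.32, 8.16, 8.01, 8.05 and 8.23 in vehicle mice and 8.47, 8.84, 8.56, 8.77 and 8.61 in treated mice, or 0.50 ± 0.27 (adjusted p = 1.0). All treated mice lay above all vehicle mice (2.04% of all genes). Without mice 82 and 95 of day 29, which enter the shared spread, Cenpa passed on day 15 (adjusted p = 0.0108), and it was then the 1 gene of the list to do so, in a fit where 0.951% of all genes passed. Pcna lay lower in every treated mouse (11.41, 11.43, 11.43, 11.42 and 11.31 against 11.54, 11.48, 11.52, 11.44 and 11.56; 1.21% of all genes), but the difference of -0.11 ± 0.14 did not pass. Mki67 read 6.35, 6.03, 7.44, 5.74 and 6.20 against 5.73, 6.43, 5.68, 6.30 and 6.50, overlapping groups that differed by -0.22 ± 0.39 (adjusted p = 1.0). Differences were -0.02 for Top2a, -0.15 for Mcm6, 0.07 for Cdk1 and -0.14 for Ccne1, none past the test.

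On day 29 the 2 brown fat libraries low in Ucp1 held the extremes of several genes. The mean deviation was 0.19 in vehicle mouse 82 and 0.49 in troglitazone mouse 95, against -0.13 to 0.04 in the other 8. Mki67 read 6.50, 5.74, 5.93, 6.07 and 6.09 in vehicle mice 82 to 86 and 5.92, 5.90, 6.00, 5.38 and 8.09 in troglitazone mice 91 to 95, a difference of 0.19. Mcm6 read 9.40, 7.52, 7.89, 7.53 and 8.16 against 7.69, 7.53, 7.75, 7.56 and 8.67, a difference of -0.26. For both genes the groups overlapped and the highest value of a group came from one of these libraries. Cdk1 had the largest difference, 0.36 ± 0.19 (adjusted p = 0.899), at 7.36, 6.44, 6.61, 6.95 and 6.77 against 6.77, 7.01, 7.44, 6.82 and 7.89. Top2a, Pcna and Ccne1 differed by 0.23, -0.03 and 0.06, none past the test. The median over the list was 0.09, and it was 0.02 without the 2 libraries, where 0 genes passed and Cdk1 differed by 0.32.

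In liver, troglitazone gave 0 of 41 genes past the threshold by limma on day 15 (0.022% of all genes) and 0 on day 29 (0.115%), with 4 at an unadjusted p below 0.05 on each day (9.76%, against 4.3% and 10.2% of all genes). On day 15 the median change was -0.0038, above 0 for 20 genes. Cenpa differed in the direction opposite to brown fat: 7.79, 7.98, 7.59, 7.61 and 7.84 in vehicle mice against 7.19, 7.57, 7.44, 7.22 and 7.50 in treated mice, or -0.38 ± 0.16 (adjusted p = 0.957). All treated mice lay below all vehicle mice (1.36% of all genes). The difference of the 2 tissues for Cenpa was 0.87 ± 0.33 and did not pass (adjusted p = 1.0). Top2a differed by -0.24 ± 0.11 (adjusted p = 0.957), Mcm6 by 0.18, Mki67 by -0.08, and Pcna, Cdk1 and Ccne1 by 0.01, 0.01 and -0.01.

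On day 29 Mcm6 had the largest difference in the liver of troglitazone mice. It read 7.68, 7.51, 7.57, 7.25 and 6.71 in vehicle mice and 8.25, 7.94, 7.79, 8.39 and 7.32 in treated mice, a difference of 0.59 ± 0.18 (95% interval 0.21 to 0.97; adjusted p = 0.333). The groups overlapped through 1 treated mouse, at 7.32. Mcm2 differed by 0.40 ± 0.13 (adjusted p = 0.384), Cdk1 by 0.27 (adjusted p = 0.469), Pcna by 0.18, Top2a by 0.10, Mki67 by 0.06 and Ccne1 by 0.03. The median over the list was 0.04, above 0 for 28 genes. Of 29 other replication genes the change was above 0 for 21, with a median of 0.11. Macrophage genes were above 0 in 12 of 12 with a median of 0.44, and their part in these values was not tested.

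In the liver of Elmiron mice on day 15, several genes of the list read higher without passing the test. By limma 0 of 41 genes passed (0% of all genes), while 8 had an unadjusted p below 0.05, all higher (19.5%, against 5.48% of all genes in either direction). The median change was 0.15, against -0.01 over all genes, and it was above 0 for 29 of 41. Top2a read 5.74, 5.85, 6.11, 6.10 and 5.88 in vehicle mice and 6.36, 6.54, 7.05, 6.14 and 6.54 in treated mice, a difference of 0.59 ± 0.17 (95% interval 0.24 to 0.95; adjusted p = 0.641). The groups did not overlap (0.748% of all genes), and mouse 53 was the highest. Mki67 read 5.76, 5.57, 5.82, 6.09 and 6.19 against 6.02, 6.18, 6.92, 5.82 and 6.45, overlapping groups that differed by 0.39 (adjusted p = 0.902). The other 6 genes with an unadjusted p below 0.05 were Birc5, Ccnb2, Cdk1, Mcm6, Nusap1 and Gins2, with differences of 0.26 to 0.48. Pcna differed by 0.11 (adjusted p = 0.958) and Ccne1 by 0.04. Macrophage genes were above 0 in 12 of 12 with a median of 0.43, at mean deviations of 0.13 to 0.67 in treated and -0.34 to 0.22 in vehicle mice, and endothelial genes in 10 of 12 with a median of 0.16. Their part in these values was not tested.

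By day 29 the Elmiron livers had a median change of 0.01, above 0 for 24 of 41 genes. By limma 0 passed (0.0055% of all genes) and 5 had an unadjusted p below 0.05, 3 higher and 2 lower (12.2%, against 8.3% of all genes). Cdc6 had the largest difference, at 4.93, 4.84, 5.04, 4.86 and 4.60 in vehicle mice and 4.77, 4.21, 4.89, 4.32 and 4.47 in treated mice, overlapping groups that differed by -0.32 ± 0.14 (adjusted p = 0.573). Top2a differed by 0.20, Cdk1 by 0.14, Pcna by 0.05, Mcm6 by 0.04, Mki67 by 0.01 and Ccne1 by -0.11, none past the test.

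**Figure D4:**
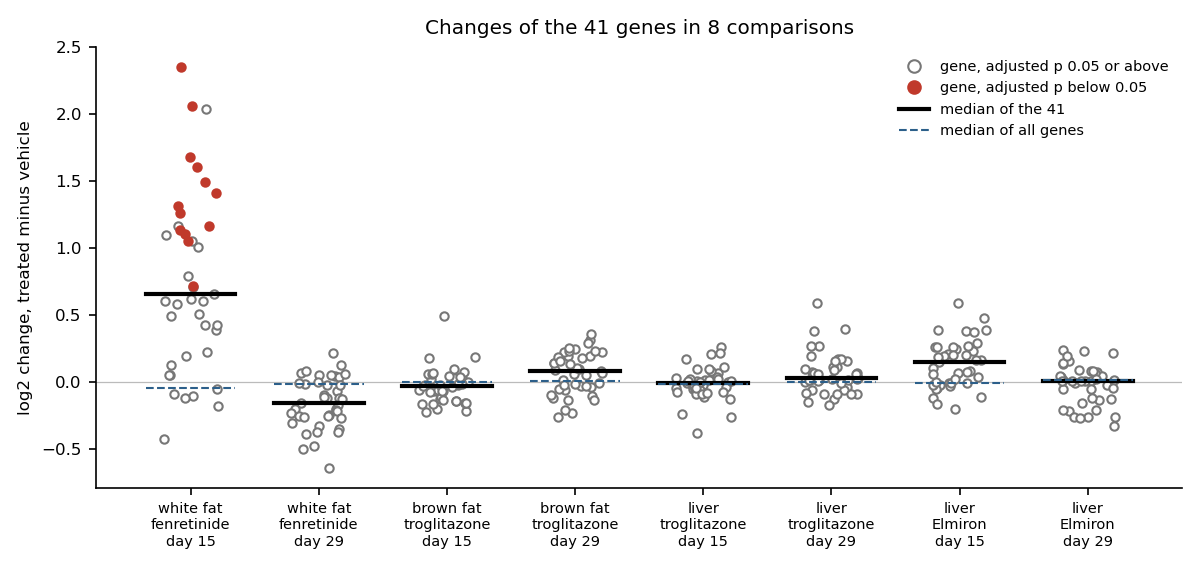
Log2 change, treated minus vehicle, of the 41 genes (points) in the 8 comparisons, with the median of the 41 and the median of all 18193 genes. The median of the list is 0.66 in white fat on day 15 and lies between -0.15 and 0.15 in the other comparisons.

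Direct tests between tissues and between compounds gave no call. The troglitazone effect in brown fat minus that in liver passed for 0 genes on day 15 (0.022% of all genes) and 0 on day 29 (0.0165%) by limma, with 1 and 2 genes at an unadjusted p below 0.05 (3.19% and 5.4% of all genes). On day 29 the median difference was 0.04, and -0.05 without mice 82 and 95, where 0 passed again. In liver, the troglitazone effect minus the Elmiron effect passed for 0 genes on day 15 (0.0055% of all genes) and 0 on day 29 (0.0934%), with 5 and 3 genes at an unadjusted p below 0.05 (5.97% and 12.7% of all genes). Top2a had the largest difference on day 15, -0.83 ± 0.21 (95% interval -1.25 to -0.42; adjusted p = 0.521). The doses were 1200 and 1000 mg/kg, and each effect was taken against the vehicle mice of its own study.

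Without treatment, brown fat and liver differed for a minority of the list. In vehicle mice of the troglitazone study, 4 of 41 genes were higher in brown fat on day 15 (28.1% of all genes) and 10 were lower (35.1%). On day 29, 5 were higher (28.3%) and 13 were lower (37.5%). In all, 34.1% of the list passed on day 15, against 63.1% of all genes, and 43.9% on day 29, against 65.8%. Tk1 had the widest gap: 10.17, 10.39, 9.97, 10.04 and 10.13 in liver against 6.99 to 7.34, with a median of 7.10, in brown fat on day 15, a difference of -3.03 ± 0.12 (8.18-fold lower in brown fat; adjusted p = 7.04e-23). On day 29 it read 9.98, 9.87, 10.12, 9.95 and 9.33 in liver against 7.15, 7.21, 7.14, 7.20 and 7.28 in brown fat, a difference of -2.65 (6.29-fold; adjusted p = 4.03e-21). Rrm2 read 7.21, 7.88, 7.99, 7.51 and 8.12 in liver and 5.71, 5.39, 6.42, 5.21 and 5.43 in brown fat on day 15. The groups of both genes were fully apart on both days. Rrm2 differed by -2.11 (adjusted p = 6.59e-07) on day 15 and by -2.40 (adjusted p = 5.84e-08) on day 29.

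Cdt1 and Cdk1 were also lower in brown fat on both days. Cdt1 differed by -0.98 on day 15 and -0.95 on day 29 (adjusted p = 0.000272 and 0.000394), and Cdk1 by -0.79 and -0.83 (adjusted p = 7.73e-05 and 4.01e-05). The opposite held for Mcm4, a helicase subunit, and Rrm1. Mcm4 read 7.48, 7.33, 7.82, 7.74 and 7.81 in liver and 8.71, 8.19, 8.33, 8.27 and 8.07 in brown fat on day 15, a difference of 0.68 (adjusted p = 0.004), and on day 29 the difference was 0.84 (adjusted p = 0.000473). Its groups were apart on both days. Rrm1 read 8.51, 8.77, 8.61, 8.64 and 8.77 in liver and 9.43, 9.30, 9.35, 9.04 and 9.08 in brown fat on day 15, a difference of 0.58 (adjusted p = 0.000185). On day 29 it differed by 0.53 (adjusted p = 0.000505) and brown fat mouse 82, at 8.65, lay among the liver values. The 2 subunits of ribonucleotide reductase therefore had opposite signs between the tissues, Rrm1 higher and Rrm2 lower in brown fat. Without mice 82 and 95, 5 genes were higher and 11 lower on day 15, and 5 and 13 on day 29. Tissue and any array batch that follows tissue cannot be told apart.

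**Figure D5:**
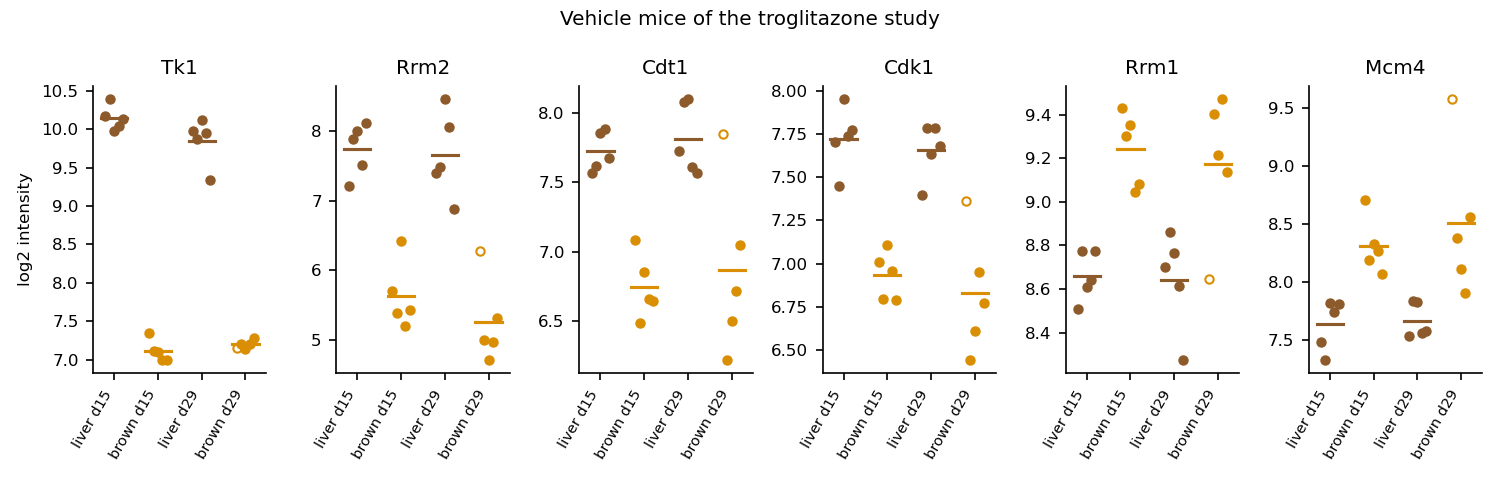
Log2 values of Tk1, Rrm2, Cdt1, Cdk1, Rrm1 and Mcm4 in vehicle mice of the troglitazone study, in liver and brown fat on days 15 and 29, 1 point per mouse; the open symbol is brown fat mouse 82 of day 29, low in Ucp1. Tk1 lies at 9.33 to 10.39 in liver and 6.99 to 7.34 in brown fat, and Rrm1 and Mcm4 lie higher in brown fat on average.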

How the data were processed

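RNA of single mice was hybridised to Affymetrix arrays, and the deposited values are linear intensities, made by the authors with RMA per the submitters' processing notes. No chip definition, genome build or RMA version is named; these were not given in the sources used here. Of 45101 probe sets, 34945 carried 1 gene symbol, 932 several and 9160 none, and 64 were controls. Intensities were set on a log2 scale with no further normalization, and each of 18193 genes took its probe set of highest mean over the 74 arrays. Within each tissue and study, limma 3.58.1 in R 4.3.3 was fitted over the 4 groups of treatment and day, with Benjamini-Hochberg adjustment over all genes. Brown fat and liver of the troglitazone study were also fitted together for differences between these tissues, and both liver studies for differences between compounds. The fits were tested on simulated data. The members and lists were chosen with earlier results of these data known. Genes named throughout were Mki67, Top2a, Mcm6, Pcna, Cdk1 and Ccne1, then the members past the threshold (the 12 of largest change) and the largest change that missed it, and up to 5 for differences between tissues, days or compounds. Rrm1 and others outside this rule were named after their values were seen. Alternatives were quantile normalization, median centring, the mean of a gene's probe sets, the brighter genes alone, trended and robust moderation, array weights, the compared groups alone and each array left out in turn. Leaving out the white fat libraries with brown adipocyte genes and the brown fat libraries low in Ucp1 was chosen after seeing the data. By the labels, 15 of 25 troglitazone-study mice gave both brown fat and liver, which pairs these arrays by mouse, and their deviations correlated at -0.135 to 0.151. The labels describe separate mice, so the spread is that between animals, and the number of arrays limits the precision.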

Additional observations from a re-analysis of the deposited data

Results flagged for a closer look

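The values of 1 gene, or the mean of the list, in 1 group made up a set, and 106 sets were tested. In 12 of them a value lay far from the rest of its group. Chance alone marks about 1 in 20 independent sets. Sets that share arrays are not independent, so the 12 cannot be set against that share. In white fat on day 29, vehicle mouse 86 had a mean deviation of the 41 genes of 0.65 from its group's mean, against -0.31 to -0.15 in the other vehicle mice, and its Cdk1 read 9.66 against 7.83 to 8.05. In brown fat of day 29, troglitazone mouse 95 had a mean deviation of 0.49 against -0.13 to 0.00, Mki67 of 8.09 against 5.38 to 6.00 and Mcm6 of 8.67 against 7.53 to 7.75, in a library low in Ucp1. In brown fat of day 15, troglitazone mouse 55 had Pcna at 11.31 against 11.41 to 11.43. In the liver of the troglitazone study on day 29, vehicle mouse 88 had Pcna at 10.81 against 11.23 to 11.37 and Ccne1 at 8.79 against 8.15 to 8.25, and troglitazone mouse 95 had Mki67 at 5.96 against 5.69 to 5.76. In the Elmiron study, treated mouse 55 of day 15 had Ccne1 at 8.92 against 8.18 to 8.30, vehicle mouse 84 of day 29 had Mcm6 at 7.67, above the 4 others, which began at 7.30, and treated mouse 94 of day 29 had Mcm6 at 7.81 against 7.32 to 7.42.

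In white fat the effect of fenretinide differed between the days by limma's test of the difference itself. It was lower on day 29 than on day 15 by a log2 difference of -1.78 for Mcm5 (adjusted p = 0.0477), -1.46 for Mcm6 (adjusted p = 0.00357) and -1.17 for Uhrf1 (adjusted p = 0.0423).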

How the results depend on the processing

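The number of genes that rose in white fat on day 15 was 13 as reported, 5 when the dimmer genes were dropped and 23 with array weights. It was 2 to 23 when 1 array was left out, and 11 to 19 under the remaining alternatives. Over all arrays, 34 of the 41 genes lay below the median gene. Dropping the dimmer genes can thus also take genes of the list out of the test, so its counts and medians cover only those left. For white fat on day 29, 1 gene (Gins2) was lower when the dimmer genes were dropped and 1 when a gene's probe sets were averaged, where 0 passed otherwise. For brown fat on day 15, 1 gene (Cenpa) was higher with array weights, with the compared groups alone and without the 2 libraries low in Ucp1. The number of genes whose fenretinide effect was lower on day 29 than on day 15 was 3, 1 without the 4 libraries with brown adipocyte genes, and 1 to 4 when 1 array was left out. The cause was not tested. No gene past the threshold changed sign. The median for white fat on day 29, where 0 genes passed, turned from -0.15 to 0.07 without vehicle mouse 86 and to 0.10 without the 4 libraries. With the mouse as a replicate block, for the paired tissues of the troglitazone study, 10 genes were lower in vehicle brown fat than in liver on day 15 and 13 on day 29, as without it, and 0 differed in the effect of troglitazone. The block moved no count of calls by over 1.5 times. Medians moved by more than the spread between replicates in 2 cases. For liver troglitazone on day 29 the median went to 0.11 without the dimmer genes, over the genes of the list that were left. For the difference between days it went to -0.66 without the 4 libraries. Of the changes of single genes, 188 kept their side of the threshold and 113 lost the call. With 3 to 5 mice a group, the number of arrays limits the precision.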
